A study of Homo sapiens with 18 samples.

Results

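The genes described here are those whose signal was lower with shERK5-4, a short hairpin RNA against ERK5, in 2 neuroblastoma lines, while the other hairpin against the same target, shERK5-5, left them near the control. Mean log2 differences from the control hairpin shNSC were taken in each line, and a probe was a member when the shERK5-4 difference was -1.2 or less in both lines and the shERK5-5 difference lay between -0.4 and 0.4 in both. Chosen by these measured mean differences, 106 of 21448 probes were members. Of these, 89 carried 1 gene symbol and 17 carried none, and 3 probes repeated the 18 values of another member, which left 103 distinct profiles. The rule used all 4 contrasts of a hairpin with shNSC, so the members' values in those contrasts are a description and carry no test.

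SK-N-BE(2), a neuroblastoma line with amplified MYCN, and CHLA-90, a neuroblastoma line without it, were transduced in wells of 250000 cells with 1.5 ml of pLKO lentiviral supernatant from HEK-293T cells. In each line 3 arrays came from cells given shNSC, 3 from cells given shERK5-4 and 3 from cells given shERK5-5, so that every group, the controls included, carried a lentiviral hairpin. No untransduced cells were among the 18 samples. All were cultured in medium with 20% serum and 1% ITS (insulin, transferrin and selenium). Total RNA was taken 72 hours after transduction in biological triplicate and measured on whole-transcript arrays, 1 log2 signal per probe and array. The labels do not say whether the triplicates came from separate transductions, so the errors below measure the spread between these samples.

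A short hairpin RNA is processed to a guide strand that is loaded into an Argonaute protein. A transcript matched along the whole guide is cleaved, and transcripts matched only by the short seed at the guide's 5' end can be repressed as well, which is the usual route to effects on genes other than the target. For that reason a study of a silenced gene commonly uses several hairpins of different sequence, and a change seen with a single hairpin is set apart from changes shared by all of them. The hairpins' sequences were not used here, so no match between a member and either guide was looked for.

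The targeted gene was measured first. MAPK7, which encodes ERK5, gave log2 signals of 6.99, 6.46 and 6.90 with shNSC, 5.97, 6.28 and 6.02 with shERK5-4, and 6.14, 6.02 and 6.28 with shERK5-5 in SK-N-BE(2). In CHLA-90 its signals were 8.37, 8.24 and 8.64 with shNSC, 7.15, 7.57 and 7.33 with shERK5-4, and 7.24, 7.83 and 7.22 with shERK5-5. All hairpin arrays of a line lay below its 3 shNSC arrays, and the arrays of the 2 hairpins overlapped. With shERK5-4 MAPK7 fell by 0.69 ± 0.19 (SE, n = 3) in SK-N-BE(2) and by 1.07 ± 0.19 in CHLA-90 (adjusted p = 0.0103 and 0.000329 by limma), and with shERK5-5 it fell by 0.64 and by 0.99 (adjusted p = 0.0319 and 0.00139 by limma). MAPK7 is not a member. Its shERK5-4 falls were smaller than the rule asks for in both lines, and its shERK5-5 differences lay outside the rule's window in both. The SK-N-BE(2) calls rested on single arrays: without shNSC replicate 1 the adjusted p by limma was 0.061 with shERK5-4 and 0.149 with shERK5-5, and the shERK5-5 call was also lost without shNSC replicate 3 (0.11), shERK5-5 replicate 1 (0.0833) or shERK5-5 replicate 2 (0.123).

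The medians of the SK-N-BE(2) arrays were 5.63 to 5.69 and those of the CHLA-90 arrays 6.35 to 6.43, and arrays of a group correlated across probes with r from 0.988 to 0.997. Adrenergic markers of neuroblastoma, 8 of 10 measured, had a mean log2 level over the list of 10.4 to 10.6 in the SK-N-BE(2) shNSC arrays and 12.9 to 13.3 in those of CHLA-90, although DBH, the noradrenaline-producing enzyme, was at 4.87 in SK-N-BE(2), below the array medians. Signals of arrays have no depth, so precision is limited by the number of arrays, and without detection calls a probe's own background is not known.

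The members were mostly well expressed genes. Their median log2 signal with shNSC was 10.94 in SK-N-BE(2) and 11.16 in CHLA-90, against 5.67 and 6.39 for all probes, and their median rank among all probes was the 86.6 percentile in SK-N-BE(2) and the 85.2 percentile in CHLA-90. A dim probe has little room for a difference of the size the rule asks for. With shERK5-4 the members' median difference was -2.05 in SK-N-BE(2) (range -4.96 to -1.22) and -1.65 in CHLA-90 (range -5.67 to -1.2), which left a median of 24.2% of the control signal in SK-N-BE(2) and 31.9% in CHLA-90. In a bulk sample less RNA per cell and fewer cells that make the RNA cannot be told apart. With shERK5-5 the members' median was 0.03 in SK-N-BE(2) and -0.09 in CHLA-90, beside -0.00 and 0.05 for all probes.

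Single arrays gave the same picture. Measured against the mean of the shNSC arrays, the median over the members was -1.99, -2.26 and -1.97 in the 3 shERK5-4 arrays of SK-N-BE(2) and -1.67, -1.70 and -1.61 in those of CHLA-90. In the shERK5-5 arrays it ranged from -0.03 to 0.09 in SK-N-BE(2) and from -0.11 to -0.03 in CHLA-90. Each of the 106 members had all 3 shERK5-4 arrays below the other 6 arrays of its line in both lines, which 955 of 21448 probes (4.45%) had. All 106 passed limma's threshold for a lower signal with shERK5-4 in both lines, beside 11.7% of all probes in SK-N-BE(2), 8.25% in CHLA-90 and 5.00% in both, and 0 passed it with shERK5-5 in either line, beside 12.8% and 12.7% (at an unadjusted p under 0.05, 4 members differed with shERK5-5 in SK-N-BE(2) and 5 in CHLA-90). These counts follow from the rule and nothing is read from them. The 106 members are part of the 360 probes at -1.2 or less with shERK5-4 in both lines.

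**Figure D1:**
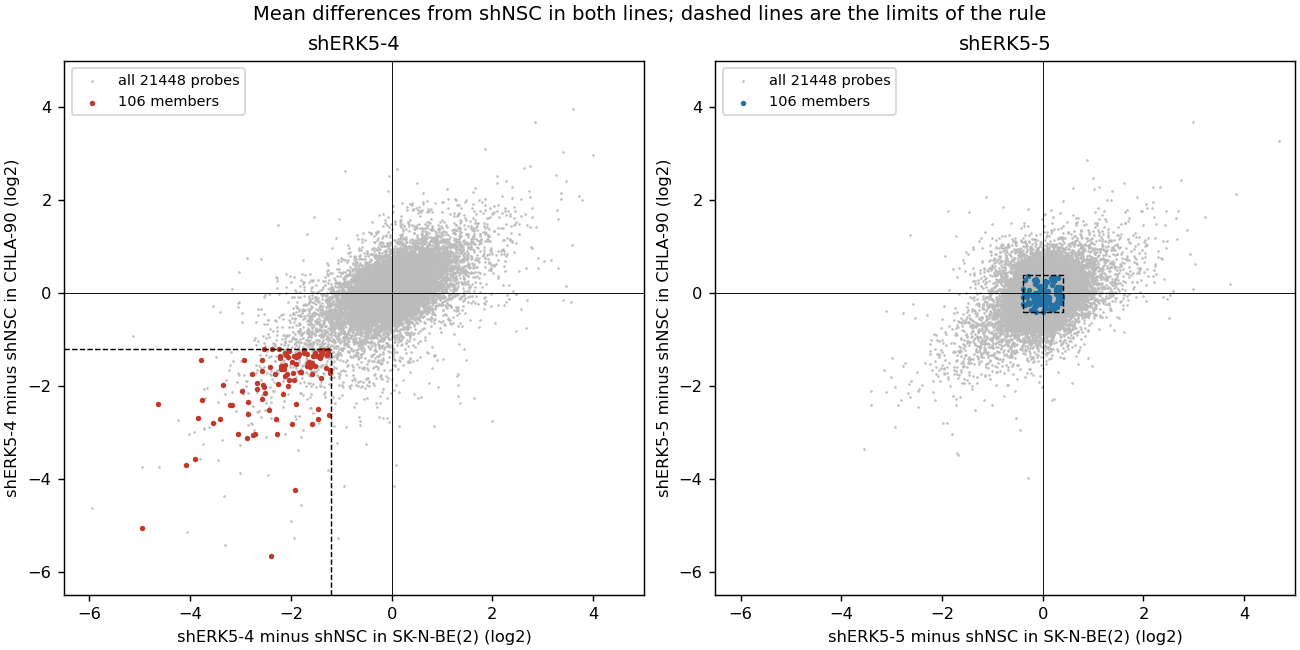
Mean log2 difference from shNSC in SK-N-BE(2) (horizontal axis) and CHLA-90 (vertical axis) for all 21448 probes (grey) and the 106 members (coloured), with shERK5-4 on the left and shERK5-5 on the right and dashed lines at the limits of the rule. The members fill the lower left corner on the left, from -1.22 to -4.96 in SK-N-BE(2), and the central square on the right.

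Values ran on without a gap on both sides of the rule's limits. The members closest to the shERK5-4 limit were CYP51A1 and PQBP1 at -1.2 and MLLT11 at -1.21 in CHLA-90, with an unnamed probe at -1.22 in SK-N-BE(2), while UBR7, MAP1B and SLC30A1 at -1.19 and SSRP1 at -1.18 stayed outside. At the shERK5-5 window, STAC (-0.40 in SK-N-BE(2)), SKP2 and TMEM123 (-0.40 in CHLA-90) and TMX1 (-0.39 in SK-N-BE(2)) were just inside. Just outside it were an unnamed probe at 0.40, MSMO1 at -0.41 in SK-N-BE(2), GPN1 at -0.42 in CHLA-90 and CPNE2 at 0.42 in SK-N-BE(2). CPNE2, a calcium-dependent phospholipid-binding protein, would have ranked near the head of the set, with shERK5-4 differences of -3.32 in SK-N-BE(2) and -4.36 in CHLA-90.

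The mirror images of the rule held fewer probes. Under the same limits 27 probes were higher with shERK5-4 alone in both lines, 34 were lower and 3 were higher with shERK5-5 alone, and 13 were at -1.2 or less with both hairpins in both lines. The contrasts of the 2 hairpins in a line share its 3 shNSC arrays, so these sizes are counts and not independent results.

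The promoters of 4 members are printed because their genes head the set or its sterol group: RTN3 and SKP2, among the 3 members with the lowest mean signal left, SREBF2, the sterol regulator, and CYP51A1, a sterol enzyme. Each is the 250 bases before the gene's start from RefSeq (GRCh38.p14), in the direction of the gene and 5' to 3', at chr11:63681200-63681449 on the plus strand for RTN3, chr5:36151861-36152110 on the plus strand for SKP2, chr22:41832855-41833104 on the plus strand for SREBF2 and chr7:92134478-92134727 on the minus strand for CYP51A1. Capitals mark, on either strand, the TATA box motif TATAAA, the CCAAT box motif CCAAT, the GC box motif GGGCGG, the E-box motif CACGTG, the ETS-family motif CCGGAAG and the sterol element motif ACCCCAC.
RTN3: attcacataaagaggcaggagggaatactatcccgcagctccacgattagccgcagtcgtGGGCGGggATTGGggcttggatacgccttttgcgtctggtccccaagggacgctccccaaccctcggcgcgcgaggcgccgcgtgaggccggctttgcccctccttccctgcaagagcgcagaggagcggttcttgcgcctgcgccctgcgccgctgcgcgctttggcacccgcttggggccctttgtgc
SKP2: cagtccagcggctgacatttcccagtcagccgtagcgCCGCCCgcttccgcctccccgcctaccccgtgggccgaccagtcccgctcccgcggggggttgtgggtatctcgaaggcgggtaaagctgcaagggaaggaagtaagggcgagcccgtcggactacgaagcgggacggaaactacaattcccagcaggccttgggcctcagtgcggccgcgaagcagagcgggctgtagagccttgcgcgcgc
SREBF2: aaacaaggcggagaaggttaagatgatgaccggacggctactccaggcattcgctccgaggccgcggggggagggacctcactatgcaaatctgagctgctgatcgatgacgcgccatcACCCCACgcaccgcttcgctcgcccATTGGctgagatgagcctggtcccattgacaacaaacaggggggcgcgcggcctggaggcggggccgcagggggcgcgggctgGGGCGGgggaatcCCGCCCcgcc
CYP51A1: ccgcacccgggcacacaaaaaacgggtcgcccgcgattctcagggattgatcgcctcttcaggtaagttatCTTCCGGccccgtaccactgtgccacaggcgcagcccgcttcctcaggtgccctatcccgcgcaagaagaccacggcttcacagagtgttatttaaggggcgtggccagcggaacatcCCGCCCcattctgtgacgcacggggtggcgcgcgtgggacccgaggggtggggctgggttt

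RTN3 carried 1 GGGCGG and 1 CCAAT on the opposite strand, SKP2 carried 1 GGGCGG on the opposite strand, and SREBF2 carried 2 GGGCGG, 1 CCAAT and 1 ACCCCAC. The last is the core of the sterol regulatory element that SREBP proteins bind. CYP51A1 carried 1 GGGCGG and 1 CCGGAAG, both on the opposite strand. A window was found for 79 of the 89 named members and for 14250 genes with a probe. Of the members' windows 51 (64.6%) held GGGCGG, against 57.0% of all, 36 (45.6%) held CCAAT against 34.6%, and 11 (13.9%) held CCGGAAG against 11.9%. TATAAA stood in 5 (6.33% against 8.99%), CACGTG in 5 (6.33% against 7.70%) and ACCCCAC in 5 (6.33% against 5.64%), the last in CASP2, CDC42EP3, CNOT9, RXYLT1 and SREBF2. The median GC content was 64.4% against 62.4%, and the median ratio of observed to expected CpG was 0.875 against 0.745. A match says only that the letters are in the window.

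The members were spread over the genome. In the RefSeq annotation of GRCh38.p14 the 89 named members lay on 21 chromosomes and all were protein-coding. Only RTN3 and ATL3, both shapers of the endoplasmic reticulum, were direct neighbours. At most 4 genes lay between the members of 4 more pairs, DESI2 and COX20 (1 gene between them), ZNF639 and MRPL47 (3), UNC5C and TSPAN5 (3), and PTPRR and TMEM19 (4).

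The endoplasmic reticulum, Golgi and glycosylation group, assembled from the members' known roles after their values had been seen, had 10 genes and the lowest medians, -2.52 in SK-N-BE(2) and -2.24 in CHLA-90. RTN3, a reticulon that bends membranes into tubules and takes part in autophagy of the endoplasmic reticulum, gave 13.36, 13.18 and 13.35 with shNSC, 8.40, 7.94 and 8.66 with shERK5-4, and 13.27, 13.44 and 13.76 with shERK5-5 in SK-N-BE(2). In CHLA-90 it gave 14.59, 14.66 and 14.71 with shNSC, 9.56, 9.49 and 9.74 with shERK5-4, and 15.15, 14.68 and 14.66 with shERK5-5. The shERK5-4 arrays stood far below the rest, at 3.21% of the control in SK-N-BE(2) and 3.00% in CHLA-90, and the shERK5-5 arrays overlapped the shNSC arrays in both lines. ATL3, the neighbouring gene and a GTPase that fuses tubules of the same network, differed by -2.20 in SK-N-BE(2) and -1.64 in CHLA-90.

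TMX1, a thioredoxin-like protein of the membrane of the endoplasmic reticulum, had signals of 13.41, 13.19 and 13.57 with shNSC, 9.66, 9.89 and 9.96 with shERK5-4, and 12.75, 13.02 and 13.22 with shERK5-5 in SK-N-BE(2) and of 12.68, 12.82 and 12.62 with shNSC, 9.84, 9.87 and 10.01 with shERK5-4, and 12.95, 12.80 and 12.63 with shERK5-5 in CHLA-90. With shERK5-4 8.52% of the control in SK-N-BE(2) and 14.4% in CHLA-90 remained, and the shERK5-5 and shNSC arrays overlapped. RXYLT1, the xylosyltransferase that builds the glycan of dystroglycan, gave 8.61, 8.59 and 8.61 with shNSC, 4.59, 4.92 and 4.99 with shERK5-4, and 8.38, 8.16 and 8.43 with shERK5-5 in SK-N-BE(2) and 7.19, 7.38 and 7.86 with shNSC, 5.36, 4.95 and 5.24 with shERK5-4, and 6.86, 7.74 and 7.14 with shERK5-5 in CHLA-90. Its shERK5-4 signals, with 7.33% of the control in SK-N-BE(2) and 20.4% in CHLA-90 left, were below the array medians, and in SK-N-BE(2) the shERK5-5 arrays also lay under all shNSC arrays.

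SLC35A5, a carrier of the family that brings nucleotide sugars into the Golgi, gave 9.74, 9.77 and 9.87 with shNSC, 8.18, 6.63 and 7.72 with shERK5-4, and 9.87, 10.22 and 10.34 with shERK5-5 in SK-N-BE(2) and 10.75, 11.19 and 11.00 with shNSC, 7.61, 7.94 and 8.31 with shERK5-4, and 11.18, 10.82 and 10.88 with shERK5-5 in CHLA-90. The shERK5-4 arrays of SK-N-BE(2) were spread, replicate 2 lying lowest, yet none reached the other 6 arrays, and 20.5% of the control in SK-N-BE(2) and 12.3% in CHLA-90 was left. GET1, a receptor subunit that inserts tail-anchored proteins into the endoplasmic reticulum, gave 11.08, 10.60 and 11.15 with shNSC, 7.70, 7.55 and 8.67 with shERK5-4, and 10.60, 10.74 and 10.94 with shERK5-5 in SK-N-BE(2) and 10.84, 10.90 and 10.92 with shNSC, 8.77, 8.58 and 9.0 with shERK5-4, and 10.70, 10.88 and 10.57 with shERK5-5 in CHLA-90. No shERK5-4 array overlapped another group, and 12.8% of the control in SK-N-BE(2) and 23.3% in CHLA-90 was left. MOSPD1, a membrane protein with a sperm-protein domain, gave 9.43, 9.38 and 9.47 with shNSC, 7.05, 6.37 and 6.58 with shERK5-4, and 9.31, 9.47 and 9.68 with shERK5-5 in SK-N-BE(2) and 9.85, 10.23 and 9.89 with shNSC, 6.98, 6.99 and 6.80 with shERK5-4, and 9.75, 9.95 and 9.72 with shERK5-5 in CHLA-90. Again only the shERK5-4 arrays stood apart, with 14.8% of the control in SK-N-BE(2) and 11.9% in CHLA-90 left. MAN1A1, a Golgi mannosidase that trims N-glycans (-2.15 and -2.18), B3GNT5, which starts lacto-series glycolipids (-2.16 and -1.64), and TXNDC16 (-1.99 and -1.49) complete the group, the first value of each pair being SK-N-BE(2) here and below.

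Among 10 members of ubiquitin and SUMO pathways and membrane turnover the medians were -2.15 and -1.59. SKP2, the substrate receptor of the SCF ubiquitin ligase that marks the cell cycle inhibitor p27 for destruction, gave 14.49, 14.50 and 14.71 with shNSC, 10.88, 10.27 and 10.27 with shERK5-4, and 14.38, 14.57 and 14.74 with shERK5-5 in SK-N-BE(2) and 13.34, 13.45 and 13.45 with shNSC, 9.67, 9.78 and 9.70 with shERK5-4, and 13.01, 13.03 and 13.01 with shERK5-5 in CHLA-90. The fall in signal to 5.86% of the control in SK-N-BE(2) and 7.71% in CHLA-90 set the shERK5-4 arrays apart in both lines. With shERK5-5 SKP2 matched shNSC in SK-N-BE(2), while in CHLA-90 all 3 shERK5-5 arrays lay under all shNSC arrays, by -0.40 on average.

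SENP3, a nucleolar protease that removes SUMO, gave 9.43, 9.72 and 9.24 with shNSC, 6.59, 6.50 and 5.80 with shERK5-4, and 9.87, 9.87 and 9.23 with shERK5-5 in SK-N-BE(2) and 9.44, 9.44 and 9.28 with shNSC, 6.82, 6.99 and 7.09 with shERK5-4, and 9.59, 9.22 and 10.21 with shERK5-5 in CHLA-90. Both lines had shERK5-4 arrays under all others, with 11.1% of the control in SK-N-BE(2) and 18.7% in CHLA-90 left. The remaining genes of this group were UBE2N, a ubiquitin-conjugating enzyme (-2.58 and -1.44), the COP9 signalosome subunit COPS8 (-2.20 and -1.57), KLHL2 (-1.88 and -1.34), NDFIP1 (-1.61 and -1.60), RNF187 (-1.96 and -1.71), DESI2 (-2.78 and -1.73), the ESCRT protein IST1 (-2.10 and -1.33) and TBC1D25 (-1.26 and -1.22).

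Mitochondrial, folate and central metabolic genes numbered 10, with medians of -2.20 and -1.81. MTHFD1, the cytosolic folate enzyme that supplies purine and thymidylate synthesis, gave 13.36, 13.09 and 13.08 with shNSC, 9.39, 9.11 and 9.52 with shERK5-4, and 13.08, 13.20 and 13.06 with shERK5-5 in SK-N-BE(2) and 12.75, 12.82 and 12.94 with shNSC, 10.16, 10.13 and 10.16 with shERK5-4, and 12.41, 12.69 and 12.71 with shERK5-5 in CHLA-90. The shERK5-4 arrays agreed closely in CHLA-90, where 15.5% was left against 7.00% in SK-N-BE(2), and the shERK5-5 arrays of CHLA-90 lay slightly under its shNSC arrays. SLC25A32, the carrier that brings folate into mitochondria, was lower as well (-2.05 and -1.37). AK3, the adenylate kinase of the mitochondrial matrix, gave 12.39, 12.30 and 12.38 with shNSC, 9.67, 9.41 and 9.38 with shERK5-4, and 12.36, 12.71 and 12.68 with shERK5-5 in SK-N-BE(2) and 13.25, 13.55 and 13.20 with shNSC, 10.10, 10.28 and 10.25 with shERK5-4, and 13.51, 13.95 and 13.59 with shERK5-5 in CHLA-90. Here 13.7% of the control in SK-N-BE(2) and 11.5% in CHLA-90 was left, with no overlap of shERK5-4 with other arrays.

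MRPL47, a protein of the large mitochondrial ribosomal subunit, gave 11.35, 11.29 and 11.16 with shNSC, 8.66, 8.31 and 8.26 with shERK5-4, and 11.47, 11.18 and 11.35 with shERK5-5 in SK-N-BE(2) and 11.70, 11.85 and 11.62 with shNSC, 9.47, 9.07 and 9.59 with shERK5-4, and 10.69, 11.79 and 11.72 with shERK5-5 in CHLA-90. It kept 13.8% of the control in SK-N-BE(2) and 19.7% in CHLA-90, and shERK5-5 replicate 1 of CHLA-90 lay about 1 log2 unit under its fellows without reaching the shERK5-4 arrays. The cytochrome oxidase assembly factor COX20 (-1.59 and -2.82), the iron-sulphur cluster protein GLRX5 (-2.14 and -1.64), cytosolic malate dehydrogenase MDH1 (-2.25 and -1.97), the haem synthesis enzyme UROS (-1.74 and -1.30), phosphoglucomutase PGM1 (-1.23 and -1.65) and MIX23 (-2.93 and -1.44) were the others.

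Signalling and apoptosis was the group of 16 genes, with medians of -1.94 and -1.70. GPR50, an orphan receptor related to the melatonin receptors, gave 16.22, 16.26 and 16.66 with shNSC, 14.31, 13.33 and 14.34 with shERK5-4, and 16.12, 16.32 and 16.35 with shERK5-5 in SK-N-BE(2) and 13.11, 13.11 and 13.43 with shNSC, 7.69, 7.30 and 7.64 with shERK5-4, and 13.51, 13.28 and 13.67 with shERK5-5 in CHLA-90. Among all members it held the lowest single value, 1.96% left in CHLA-90, against 19.1% in SK-N-BE(2), where its control level was higher. MAP3K1, a kinase that activates the JNK cascade, gave 13.94, 13.89 and 13.98 with shNSC, 10.80, 10.57 and 10.38 with shERK5-4, and 13.59, 13.63 and 13.56 with shERK5-5 in SK-N-BE(2) and 13.16, 13.10 and 13.03 with shNSC, 10.98, 11.22 and 11.15 with shERK5-4, and 13.66, 13.26 and 13.22 with shERK5-5 in CHLA-90. With shERK5-4 9.78% of the control in SK-N-BE(2) and 25.3% in CHLA-90 was left, and its shERK5-5 arrays lay just below all shNSC arrays in SK-N-BE(2) and just above them in CHLA-90.

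ELMO1, which with DOCK proteins activates the GTPase Rac, gave 9.48, 9.66 and 9.76 with shNSC, 6.18, 6.47 and 6.65 with shERK5-4, and 9.30, 9.30 and 9.69 with shERK5-5 in SK-N-BE(2) and 13.01, 13.07 and 13.50 with shNSC, 10.72, 10.84 and 10.78 with shERK5-4, and 12.88, 13.25 and 13.23 with shERK5-5 in CHLA-90. The shERK5-4 arrays kept 10.9% of the control in SK-N-BE(2) and 18.8% in CHLA-90 and overlapped no others. GEM, a small GTP-binding protein that inhibits voltage-gated calcium channels, gave 8.79, 8.19 and 9.24 with shNSC, 5.28, 4.62 and 4.97 with shERK5-4, and 8.18, 8.57 and 8.38 with shERK5-5 in SK-N-BE(2) and 7.16, 7.64 and 7.12 with shNSC, 5.95, 5.90 and 5.76 with shERK5-4, and 6.48, 7.27 and 7.43 with shERK5-5 in CHLA-90. Its control arrays were spread in SK-N-BE(2), and 7.26% of the control in SK-N-BE(2) and 36.9% in CHLA-90 was left. CASP2, the initiator caspase-2, gave 12.63, 12.72 and 13.14 with shNSC, 10.82, 10.38 and 10.43 with shERK5-4, and 12.98, 13.07 and 13.14 with shERK5-5 in SK-N-BE(2) and 13.05, 13.12 and 13.18 with shNSC, 10.31, 10.40 and 10.47 with shERK5-4, and 12.60, 13.06 and 12.66 with shERK5-5 in CHLA-90. It kept 20.5% of the control in SK-N-BE(2) and 15.1% in CHLA-90, the shERK5-4 arrays again being the lowest in both lines.

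The other signalling members included the adaptor CRKL (-1.90 and -1.54), the TAK1 partner TAB3 (-1.42 and -1.23), the G protein alpha subunit GNA13 (-1.94 and -1.36), the lysophosphatidic acid receptor LPAR1 (-1.30 and -1.62), the MAP kinase phosphatase PTPRR (-1.46 and -2.70), the ribosomal S6 kinase RPS6KA2 (-1.27 and -1.28), the IKK-epsilon suppressor SIKE1 (-2.12 and -1.78) and the apoptosis inhibitor API5 (-2.68 and -2.08). FARP2, CDC42EP3 and PHLDA1 had -1.68 and -1.32, -1.95 and -1.87, and -1.68 and -1.57.

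Surface, adhesion, guidance and cytoskeletal proteins made a group of 12, with medians of -2.08 and -1.93. POPDC2, a membrane protein that binds cyclic AMP, gave 13.32, 13.48 and 13.05 with shNSC, 8.99, 8.15 and 8.79 with shERK5-4, and 13.09, 12.87 and 12.94 with shERK5-5 in SK-N-BE(2) and 9.60, 9.19 and 9.32 with shNSC, 7.14, 6.87 and 6.95 with shERK5-4, and 9.48, 8.90 and 9.45 with shERK5-5 in CHLA-90. Of its control signal 4.01% of the control in SK-N-BE(2) and 19.2% in CHLA-90 was left. LRRN3, a leucine-rich repeat protein of neurons, gave 12.31, 11.82 and 12.14 with shNSC, 10.28, 9.89 and 10.33 with shERK5-4, and 12.36, 12.50 and 12.46 with shERK5-5 in SK-N-BE(2) and 14.70, 15.11 and 14.92 with shNSC, 10.63, 10.57 and 10.83 with shERK5-4, and 14.75, 15.43 and 14.96 with shERK5-5 in CHLA-90. It kept 26.4% of the control in SK-N-BE(2) and 5.32% in CHLA-90, and in SK-N-BE(2) the shERK5-5 arrays lay above all shNSC arrays. BSG, or basigin, the partner of the lactate transporters, gave 14.82, 15.07 and 14.70 with shNSC, 12.12, 11.57 and 11.75 with shERK5-4, and 14.97, 14.78 and 14.92 with shERK5-5 in SK-N-BE(2) and 14.33, 14.21 and 14.53 with shNSC, 11.37, 11.39 and 11.18 with shERK5-4, and 14.25, 13.67 and 14.11 with shERK5-5 in CHLA-90. The share left was the same in both lines, 12.1%.

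Guidance and adhesion genes in this group were the netrin receptor UNC5C (-2.41 and -1.59), the semaphorin SEMA5A (-2.12 and -1.28), the teneurin TENM4 (-1.40 and -1.83) and plakoglobin, JUP (-1.25 and -2.62). The tetraspanins TSPAN5 (-1.97 and -2.82) and TSPAN14 (-2.11 and -1.55), TMEM123 (-2.53 and -2.03), STAC (-1.44 and -1.35) and the microtubule protein EML4 (-2.05 and -1.24) were the rest.

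Nuclear transport, RNA and transcription was the largest group, with 17 genes and medians of -1.84 and -1.39. It held the importins KPNA4 (-2.55 and -1.97) and KPNA6 (-1.84 and -1.31), the nucleoporin NUP214 (-1.55 and -1.35), the splicing factor SRSF4 (-1.58 and -1.5), the Integrator subunit INTS14 (-2.04 and -1.87), the CCR4-NOT subunit CNOT9 (-1.86 and -1.36), the chromatin remodelling subunit ARID1B (-1.22 and -1.66) and TIMELESS, a replication fork protein (-1.82 and -1.71). Also in it were PPIL3, PQBP1, IKZF5, ZNF639, ZNF618, ZNF704, RFXAP, GTSE1 and MLLT11, the lowest of them PQBP1 at -2.54 in SK-N-BE(2) and ZNF704 at -2.40 in CHLA-90. No role was assigned to DNAJC4, EOLA1, EOLA2, MAB21L1, MORN4, TMEM183A and TMEM19 (medians -2.08 and -1.74). EOLA1 and EOLA2 are close paralogs whose signals the probes may not separate.

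**Figure D2:**
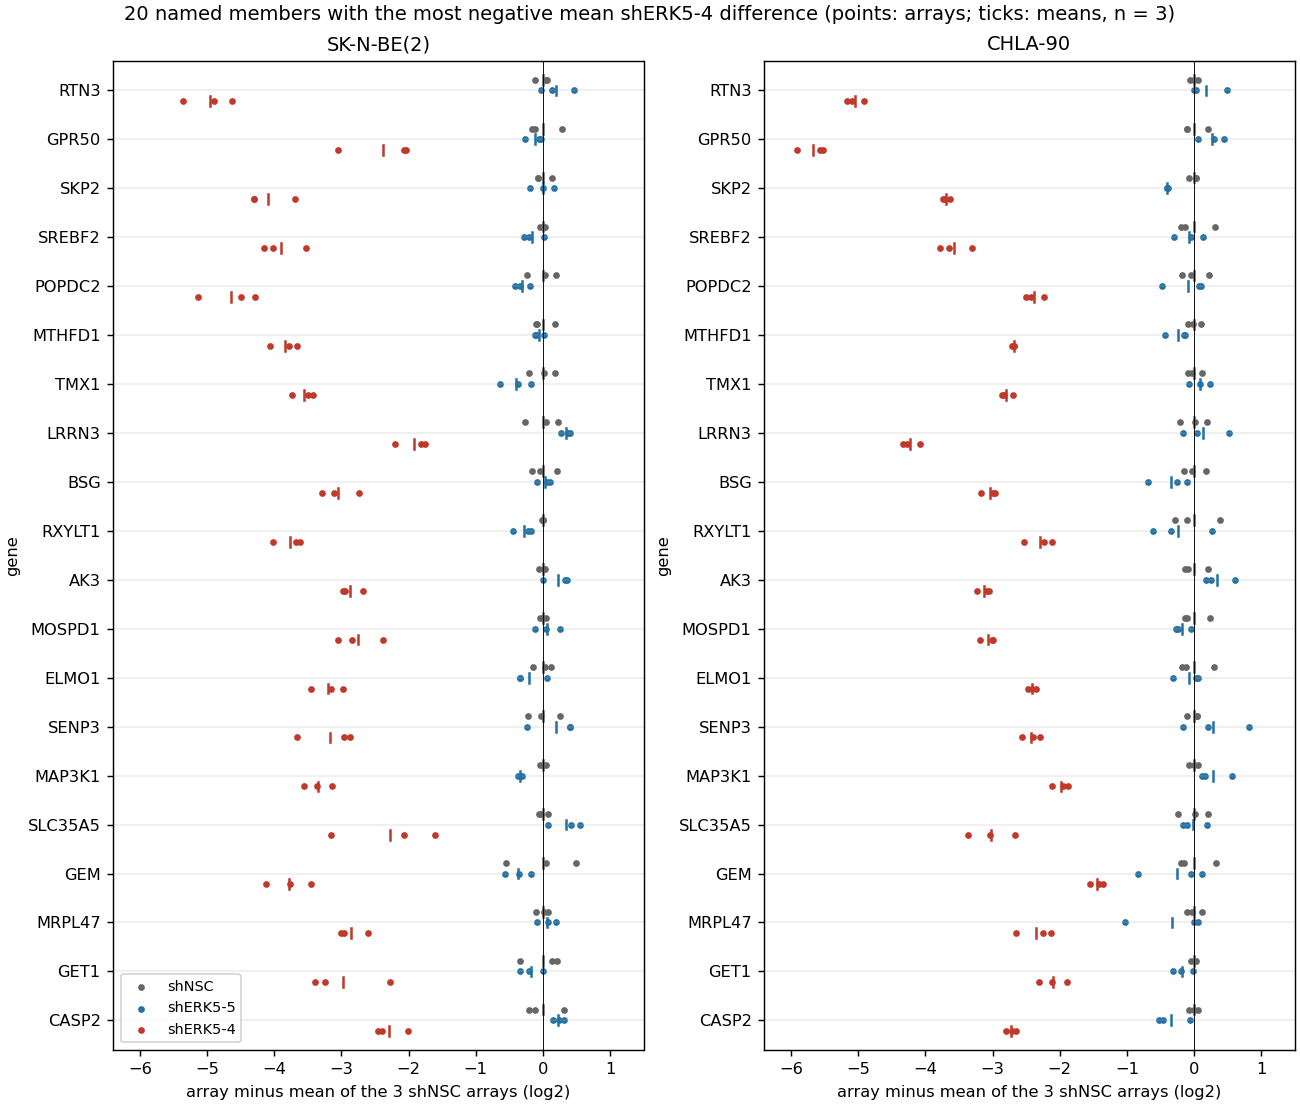
Log2 signal of each array minus the mean of the 3 shNSC arrays of its line (horizontal axis) for the 20 named members with the lowest mean shERK5-4 difference (vertical axis), with shNSC in grey, shERK5-5 in blue, shERK5-4 in red and ticks at the means of 3 arrays. Every shERK5-4 array lies left of every other array of its gene, from RTN3 at -4.96 and -5.06 to CASP2 at -2.29 and -2.72.

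The depth of the difference varied widely among members. At 10% of the control signal or less were 10 members in SK-N-BE(2), 5 in CHLA-90 and 3 in both, which were RTN3, SKP2 and SREBF2. At 25% or less in both lines were 26. Few members reached the dim end of the array: with shERK5-4, GEM, RXYLT1, SEMA5A, PGM1 and RFXAP lay below the array medians in SK-N-BE(2), and GEM, RXYLT1, SEMA5A, TENM4 and TIMELESS did in CHLA-90. These genes were picked out after their values were seen. The difference was larger in SK-N-BE(2) for 81 of the 106 members, the 3 repeated profiles counted. This count is made of the values on which the rule chose the members, and nothing is read from it. Across the 103 distinct profiles the differences of the 2 lines correlated with r = 0.533 (Spearman's rho = 0.522), which describes values that the rule had selected in both lines.

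Choosing in a single line and reading in the other gives values that the choice did not use. The rule applied to SK-N-BE(2) alone took 420 probes. In CHLA-90, 293 of them (69.8%) fell with shERK5-4, against 8.25% of all probes, and 1 rose, against 10%, with a median of -1.01 beside 0.01 for all probes (limma, Benjamini-Hochberg adjusted over all probes). With shERK5-5 in CHLA-90, 55 of the 420 fell (13.1%, against 6.84%) and 27 rose (6.43%, against 5.85%). The rule applied to CHLA-90 alone took 287 probes, of which 227 (79.1%, against 11.7%) fell with shERK5-4 in SK-N-BE(2) and 4 rose (1.39%, against 12.2%), with a median of -1.44 beside 0.01. With shERK5-5 in SK-N-BE(2), 16 of the 287 fell (5.57%, against 6.07%) and 54 rose (18.8%, against 6.76%).

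The probes that went opposite ways in the lines were all named, and were picked out after their values were seen. SYT9, a synaptotagmin, was lower in SK-N-BE(2) (-2.26) and rose with shERK5-4 in CHLA-90 by 1.46 (adjusted p = 3.89e-06 by limma). ADCYAP1R1, the receptor of the neuropeptide PACAP, AK5, the complement gene C7 and the adhesion molecule CNTN1 were lower in CHLA-90 (-2.27, -1.35, -1.78 and -1.74) and rose in SK-N-BE(2) by 1.64, 0.84, 1.30 and 1.32 (largest adjusted p = 0.00401 by limma, for AK5). Both lines received the same hairpin, so the recurrence of these falls does not bear on the target.

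The size of the shERK5-4 difference was not the same in both lines for every member. Its line difference, CHLA-90 minus SK-N-BE(2), is made of the values on which the rule chose the members, so it is given as a description with no test. In the limma fit over all probes 22 of the 106 members passed the threshold for it, beside 7.23% of all probes, 16 with the larger drop in SK-N-BE(2) (3.89% of all probes lay on that side) and 6 with the larger drop in CHLA-90 (3.33%). Nothing is read from these counts, since members chosen for large drops have more room to differ than other probes have. After quantile normalization of all arrays the members numbered 111 and those past the threshold 17, split 9 and 8.

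Members with the larger drop in SK-N-BE(2) were led by GEM, for which CHLA-90 minus SK-N-BE(2) was 2.35 ± 0.36 (SE, n = 3 arrays a group), and POPDC2, with 2.26 ± 0.29. MIX23 followed with 1.49 ± 0.27 and RXYLT1 with 1.48 ± 0.30. MIX23, a mitochondrial intermembrane space protein, gave 10.72, 10.58 and 10.52 with shNSC, 7.86, 7.71 and 7.46 with shERK5-4, and 10.74, 10.37 and 10.18 with shERK5-5 in SK-N-BE(2). In CHLA-90 it gave 9.21, 8.91 and 8.88 with shNSC, 7.75, 7.49 and 7.43 with shERK5-4, and 9.57, 9.38 and 8.90 with shERK5-5. For all 4 genes the 3 shERK5-4 arrays of SK-N-BE(2), relative to the shNSC mean, lay below those of CHLA-90.

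GPR50 led the other direction, with a line difference of -3.29 ± 0.32. LRRN3 had -2.31 ± 0.27, JUP -1.37 ± 0.33 and PTPRR -1.24 ± 0.25. JUP, which links cadherins to the cytoskeleton, gave 9.90, 9.85 and 10.34 with shNSC, 8.64, 8.79 and 8.91 with shERK5-4, and 10.15, 9.76 and 10.44 with shERK5-5 in SK-N-BE(2) and 10.29, 10.09 and 10.82 with shNSC, 7.56, 7.52 and 8.27 with shERK5-4, and 10.06, 10.14 and 10.54 with shERK5-5 in CHLA-90. PTPRR gave 13.44, 13.55 and 13.33 with shNSC, 12.25, 11.85 and 11.83 with shERK5-4, and 13.32, 13.30 and 13.27 with shERK5-5 in SK-N-BE(2) and 9.95, 9.95 and 10.19 with shNSC, 7.05, 7.69 and 7.24 with shERK5-4, and 10.54, 10.29 and 10.17 with shERK5-5 in CHLA-90. For all 4 genes the shERK5-4 arrays of CHLA-90 lay further from their controls than any of SK-N-BE(2).

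**Figure D3:**
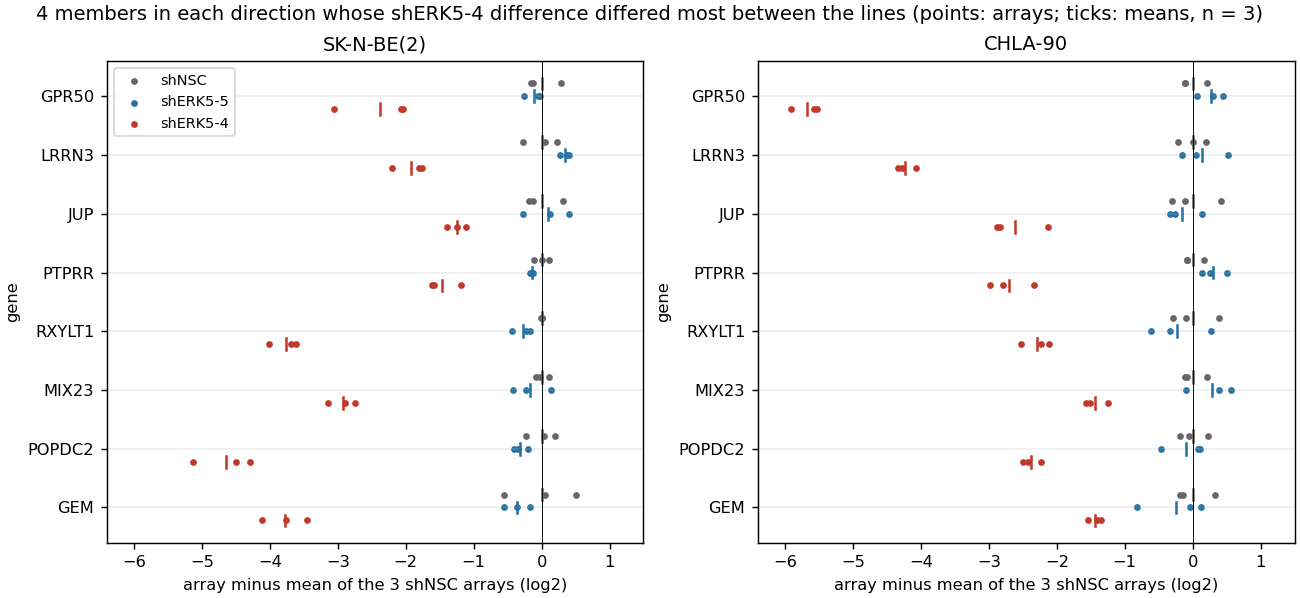
Log2 signal of each array minus the mean of the 3 shNSC arrays of its line (horizontal axis) for the 4 members in each direction with the largest line difference of the shERK5-4 effect among those past limma's threshold (vertical axis), with shNSC in grey, shERK5-5 in blue, shERK5-4 in red and ticks at the means of 3 arrays. GPR50, LRRN3, JUP and PTPRR sit further left in CHLA-90, and RXYLT1, MIX23, POPDC2 and GEM sit further left in SK-N-BE(2).

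The lines also differed in the members' control levels, a contrast of the shNSC arrays alone that the rule did not use. After each array was centred on its median, limma called 72 of 106 members (67.9%, against 56.3% of all probes), 18 higher in CHLA-90 (19.2% of all probes were) and 54 lower (37.1% of all probes were). The members' median difference was -0.45 beside -0.27 for all probes. The direction of the split depends on the scaling: the values as deposited, whose medians differed by 0.743 between the lines, gave 45 higher and 26 lower (48.4% and 11.6% of all probes), and quantile normalization gave 28 higher and 37 lower of 111 members (23.6% and 24.6% of all probes).

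Lower in CHLA-90 by the largest centred differences were LPAR1 (-4.68 ± 0.19, adjusted p = 3.04e-15 by limma), POPDC2 (-4.63 ± 0.20), PTPRR (-4.13 ± 0.18), GPR50 (-3.88 ± 0.22), MAN1A1 (-3.42 ± 0.15) and SEMA5A (-2.94 ± 0.26). The mean log2 signal of LPAR1 was 15.63 ± 0.05 (SD, n = 3) with shNSC in SK-N-BE(2) and 11.66 ± 0.22 in CHLA-90. Higher in CHLA-90 were TSPAN5 (3.34 ± 0.19, adjusted p = 1.26e-12 by limma), ELMO1 (2.84 ± 0.19), PGM1 (2.42 ± 0.23), LRRN3 (2.10 ± 0.19), SRSF4 (1.16 ± 0.16) and RFXAP (1.00 ± 0.20, adjusted p = 0.000248 by limma). TSPAN5 had 8.13 ± 0.07 in SK-N-BE(2) and 12.18 ± 0.08 in CHLA-90. These 12 genes kept their direction and their call under the alternatives run, both scalings included. Control level and the shERK5-4 line difference took several combinations among the genes named for that difference. POPDC2, GEM, MIX23 and RXYLT1, lower in CHLA-90 under shNSC, dropped further in SK-N-BE(2). LRRN3, higher in CHLA-90, dropped further in CHLA-90. GPR50 and PTPRR, lower in CHLA-90, also dropped further there, and JUP was not called between the lines under shNSC. The rule chose the members on these drops, and a link with control level was not tested.

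A regulator of sterol metabolism, SREBF2, was among the members. SREBP-2, encoded by SREBF2, is held in the endoplasmic reticulum when cholesterol is plentiful, and when it is scarce is carried by SCAP to the Golgi, cleaved, and sent to the nucleus to switch on cholesterol synthesis and uptake. SREBF2 gave 12.02, 11.99 and 11.95 with shNSC, 8.46, 7.97 and 7.83 with shERK5-4, and 12.00, 11.70 and 11.78 with shERK5-5 in SK-N-BE(2) and 12.12, 12.06 and 12.56 with shNSC, 8.94, 8.60 and 8.47 with shERK5-4, and 12.20, 11.95 and 12.38 with shERK5-5 in CHLA-90. Its shERK5-4 arrays kept 6.70% of the control in SK-N-BE(2) and 8.38% in CHLA-90, the mean differences being -3.90 ± 0.19 (SE, n = 3) and -3.58 ± 0.19, and its shERK5-5 arrays overlapped the controls in both lines. CYP51A1, the lanosterol demethylase, gave 11.83, 12.12 and 11.91 with shNSC, 9.77, 9.64 and 9.30 with shERK5-4, and 11.88, 12.05 and 12.19 with shERK5-5 in SK-N-BE(2) and 11.63, 11.56 and 11.56 with shNSC, 10.24, 10.45 and 10.46 with shERK5-4, and 12.25, 11.97 and 11.26 with shERK5-5 in CHLA-90. It stood at the rule's limit in CHLA-90, with 43.5% left. ACAT2, the thiolase at the head of the pathway, had -1.74 and -1.22, and the lipid genes CDIPT, a phosphatidylinositol synthase (-2.43 and -2.53), PIP4K2A (-1.89 and -1.37), the AMPK subunit PRKAB1 (-1.39 and -1.30) and the peroxisomal protease LONP2 (-1.67 and -1.51) were members too. These 7 genes had medians of -1.89 and -1.37.

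A list of sterol synthesis and uptake genes, drawn up with earlier results of these data known, had 20 of 25 entries measured, CYP51A1 and ACAT2 among them. Of the 18 that were not members, 12 fell with shERK5-4 in SK-N-BE(2) and 13 in CHLA-90, and 0 rose in either line, nor did any at an unadjusted p under 0.05 (11.7% and 8.25% of all probes fell, 12.2% and 10% rose; limma). With members included 14 and 15 of 20 were lower, with list medians of -1.41 and -0.90 beside 0.01 for all probes in both lines. With shERK5-5, 2 of 20 fell and 1 rose in SK-N-BE(2) (6.07% and 6.76% of all probes), and 1 fell and 0 rose in CHLA-90 (6.84% and 5.85%), with list medians of 0.01 and -0.17. At an unadjusted p under 0.05, 6 were lower and 1 higher with shERK5-5 in SK-N-BE(2), and 7 lower and 0 higher in CHLA-90. Over the list, the mean log2 level was 10.7 to 10.8 in the shNSC arrays of SK-N-BE(2), 9.09 to 9.38 with shERK5-4 and 10.6 to 10.7 with shERK5-5. In CHLA-90 the ranges were 11.00 to 11.02 with shNSC, 9.84 to 9.89 with shERK5-4 and 10.8 to 10.9 with shERK5-5.

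The lowest non-member of the list was TMEM97, the sigma-2 receptor that binds the cholesterol transporter NPC1, which fell with shERK5-4, the differences being -5.96 ± 0.16 (SE, n = 3) in SK-N-BE(2) and -4.63 ± 0.16 in CHLA-90. It stayed outside the set through its shERK5-5 difference of -0.71 in CHLA-90, where that in SK-N-BE(2) was -0.06. HMGCS1, the synthase that makes HMG-CoA, had -2.89 and -1.99 with shERK5-4 and -1.08 and -0.13 with shERK5-5. INSIG1, which retains SCAP in the endoplasmic reticulum and is itself an SREBP target, had -1.62 and -2.48 against -0.52 and 0.12, and MSMO1, the sterol methyl oxidase, had -2.15 and -1.90 against -0.41 and -0.40. TM7SF2, PMVK and LSS passed the threshold with neither hairpin in either line.

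**Figure D4:**
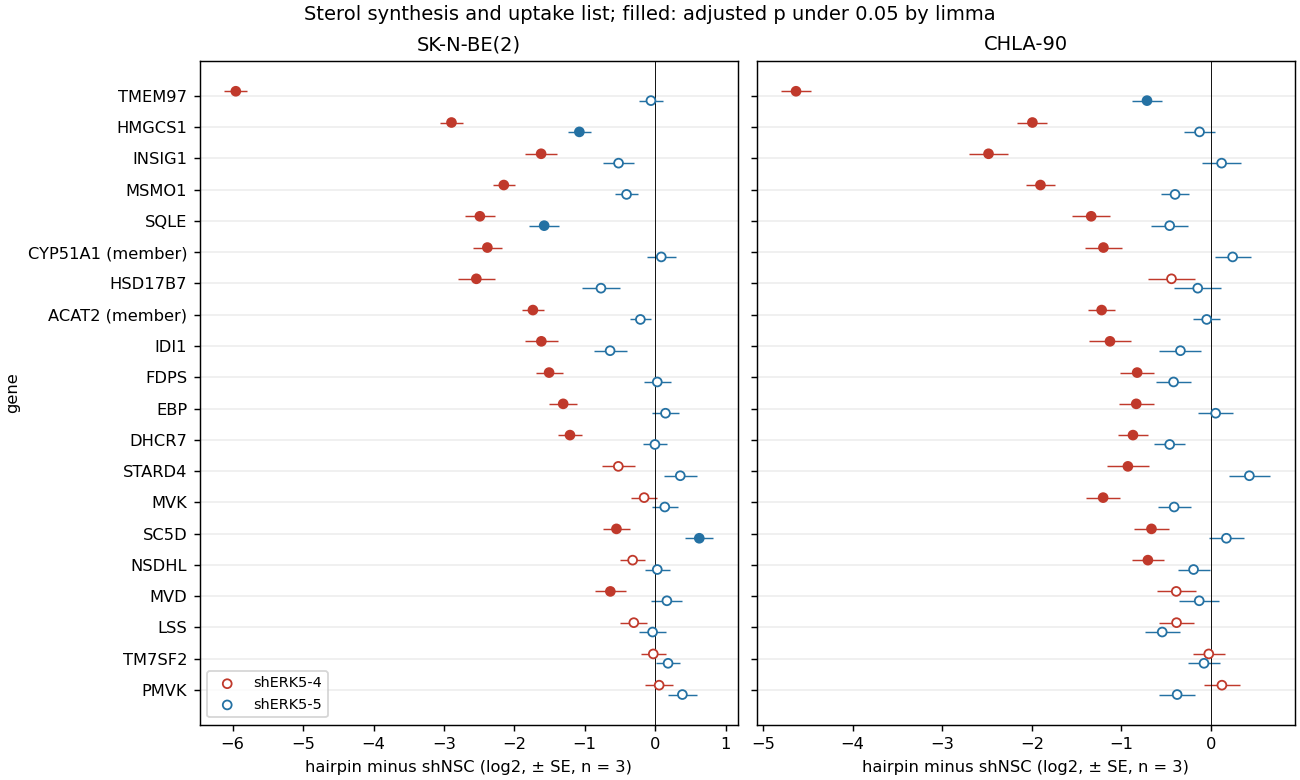
Log2 difference of each hairpin from shNSC (horizontal axis, bars ± SE from 3 arrays a group) for the 20 measured genes of the sterol list (vertical axis), with shERK5-4 in red, shERK5-5 in blue and filled points where limma's adjusted p was under 0.05. From TMEM97 at -5.96 and -4.63 down to EBP and DHCR7 the red points lie left of the blue ones in both lines, while TM7SF2 and PMVK lie near 0 with both hairpins.

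SREBP regulators and fatty acid genes were read beside the same shares of all probes. Of 11 measured genes on the SREBP regulator list, 3 were lower and 1 higher with shERK5-4 in SK-N-BE(2). In CHLA-90, 2 were lower and 1 higher (3 and 4 at an unadjusted p under 0.05), with medians of -0.08 in both lines. With shERK5-5, 1 fell and 0 rose in SK-N-BE(2), and 1 fell and 2 rose in CHLA-90. At an unadjusted p under 0.05, 2 were lower and 2 higher with shERK5-5 in SK-N-BE(2), and 1 lower and 3 higher in CHLA-90. The list also held genes of cholesterol transport and storage. Lower with shERK5-4 in both lines were SREBF2 itself and INSIG1, which is also on the sterol list. ABCA1, picked out after its values were seen, was the other in SK-N-BE(2), with a shNSC mean of 3.58, below the array medians there. SREBF1, the related factor of fatty acid synthesis, differed by 0.13 and -0.08 with shERK5-4. SCAP, the escort of both SREBP proteins, differed by 0.07 in SK-N-BE(2) and rose by 0.70 in CHLA-90 (adjusted p = 0.0217 by limma). Of 11 measured fatty acid genes 2 fell and 2 rose in SK-N-BE(2) and 1 fell and 1 rose in CHLA-90 with shERK5-4, with medians of -0.09 and -0.23, and 2 and 3 fell and 0 rose with shERK5-5 (1 in each line at an unadjusted p under 0.05). The genes that fell with shERK5-5 in both lines were SCD and GPAM, picked out after their values were seen. SCD, the stearoyl desaturase, was lower in all 4 contrasts, with differences of -0.64 and -1.19 for shERK5-4 and of -1.76 and -1.67 for shERK5-5. GPAM, an acyltransferase that starts glycerolipid synthesis, had -2.77 and -1.56 with shERK5-5, and 0.58 and -0.17 with shERK5-4.

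Genes of the small RNA machinery and of the interferon response were read beside the set and beside all probes, of which 11.7% fell and 12.2% rose with shERK5-4 in SK-N-BE(2), and 8.25% fell and 10% rose in CHLA-90. With shERK5-5, 6.07% of all probes fell and 6.76% rose in SK-N-BE(2), and 6.84% fell and 5.85% rose in CHLA-90. Of 13 measured genes of the small RNA machinery, 1 fell and 5 rose with shERK5-4 in SK-N-BE(2) and 0 fell and 3 rose in CHLA-90 (1 and 5 at an unadjusted p under 0.05). With shERK5-5, 2 fell and 2 rose in SK-N-BE(2) and 1 fell and 3 rose in CHLA-90. The genes that rose with shERK5-4 in both lines were AGO4, an Argonaute (1.37 and 0.91), and TNRC6A (1.03 and 1.00) and TNRC6B (0.94 and 0.85), scaffolds that Argonautes recruit to repress their targets. These were picked out after their values were seen, and with shERK5-5 they differed by 0.28 and 0.04, by -0.10 and -0.07, and by 0.07 and 0.42. The Argonautes AGO1 and AGO2, picked out in the same way, rose with shERK5-5 in both lines, by 1.29 and 1.25 and by 1.09 and 0.62. With shERK5-4 they differed by -0.13 and 0.20 and by 0.17 and 0.44, and were not called. The part of these genes in the members' values was not tested.

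Of 22 measured interferon-stimulated genes and RNA sensors, 1 fell and 5 rose with shERK5-4 in SK-N-BE(2) and 1 fell and 7 rose in CHLA-90, and with shERK5-5, 0 fell and 3 rose in SK-N-BE(2) and 2 fell and 0 rose in CHLA-90 (0 and 4, and 3 and 1, at an unadjusted p under 0.05). The shares that rose with shERK5-4 among all probes were 12.2% and 10%, and with shERK5-5 they were 6.76% and 5.85%. The list's mean log2 level was 4.59 to 4.67 with shNSC and 4.83 to 4.84 with shERK5-4 in SK-N-BE(2), and 5.35 to 5.44 and 5.67 to 5.68 in CHLA-90. At an unadjusted p under 0.05, 1 fell and 7 rose with shERK5-4 in SK-N-BE(2), and 1 fell and 8 rose in CHLA-90. OAS3 was the gene that fell with shERK5-4, by 0.99 and 0.77. IFI44, IRF9 and TLR3, picked out after their values were seen, rose with shERK5-4 in both lines, by 0.68 and 1.12, 1.29 and 1.13, and 0.98 and 0.78. With shERK5-5 these genes differed by 0.57 and 0.14, 0.16 and 0.25, and 0.59 and -0.34. Read beside the same shares, of 13 measured genes of the ERK5 cascade and its reported targets, MAPK7 included, 3 fell and 1 rose in SK-N-BE(2) and 2 and 2 did in CHLA-90 with shERK5-4, against 3 and 5, and 1 and 4, with shERK5-5. MYCN, the oncogene on this list, was lower with shERK5-4 in both lines (-2.02 and -1.89), and with shERK5-5 it differed by -0.80 in SK-N-BE(2) and 0.97 in CHLA-90.

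Markers of cell type were read in the same way. Of 8 measured adrenergic markers 4 fell in SK-N-BE(2) and 5 in CHLA-90 with shERK5-4, and 0 rose (limma; 6 and 6 were lower and 1 and 0 higher at an unadjusted p under 0.05), where 11.7% and 8.25% of all probes fell and 12.2% and 10% rose. With shERK5-5, 0 fell and 1 rose in SK-N-BE(2), and 1 fell and 0 rose in CHLA-90 (1 and 1, and 3 and 1, unadjusted), beside 6.07% and 6.76%, and 6.84% and 5.85%, of all probes. The list's mean log2 level, given above for shNSC, was 9.22 to 9.74 with shERK5-4 and 10.4 to 10.7 with shERK5-5 in SK-N-BE(2), and 10.9 to 11.2 and 12.6 to 13.0 in CHLA-90. The lowest with shERK5-4 were CHGA, or chromogranin A (-2.45 and -3.92), DBH (-1.07 and -5.27), the factor ISL1 (-3.0 and -3.28) and the factor PHOX2A (-0.55, not called, and -2.27). With shERK5-5 they differed by 0.23 and -1.07, -0.02 and -0.50, -0.43 and 0.17, and -0.10 and -0.73, of which only CHGA in CHLA-90 was called. HAND2 and GATA2 passed the threshold with neither hairpin in either line. The part of this list in the members' values was not tested.

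Markers of other cell types were mostly dim. Of 5 measured fibroblast markers 3 fell and 1 rose with shERK5-4 in SK-N-BE(2) and 2 fell and 0 rose in CHLA-90, unadjusted counts included, beside 11.7% and 12.2%, and 8.25% and 10%, of all probes. With shERK5-5, 3 and 1 rose and 0 fell in either line, beside 6.76% and 5.85% of all probes that rose. Their mean level went from 10.7 to 10.8 with shNSC to 9.92 to 10.1 with shERK5-4 and 11.6 to 11.9 with shERK5-5 in SK-N-BE(2), and from 8.67 to 8.70 to 8.10 to 8.34 and 8.81 to 9.12 in CHLA-90. The mean of LUM, or lumican, was 14.49 in the SK-N-BE(2) controls. With shERK5-4, 0 of 3 Schwann cell markers fell and 1 rose in SK-N-BE(2), S100B, and 0 changed in CHLA-90, also without adjustment, at list levels of 4.07 to 4.85. Of 5 endothelial markers 0 were called in the 4 hairpin contrasts (2 were higher with shERK5-4 in CHLA-90 unadjusted), at list levels of 3.92 to 5.00. Of 4 blood and immune markers 1 fell with shERK5-4 in SK-N-BE(2), PTPRC (-1.95), and 0 in CHLA-90 (1 unadjusted), at list levels of 4.09 to 5.22.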

How the data were processed

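The RNA of 2 neuroblastoma lines was measured on 18 whole-transcript arrays with biotin label, 3 in each of 6 groups. The deposited values are log2 signals with 2 decimals, 1 per probe and array, which the authors had summarised and normalized. Their base was inferred from their range. How they were summarised, with which software and on which build is not stated in the labels. The lines' medians differ while those within a line do not, which bears on the comparison of the lines' levels and not on differences within a line.

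All 21448 probes were kept. The probe table named 17709 with 1 symbol and 3739 with none, and a current RefSeq gene table changed 0 symbols. Groups came from the labels. A single limma model (version 3.58.1, R 4.3.3; lmFit and eBayes) with a mean per group was fitted to all arrays, with 12 residual and 9.588 prior degrees of freedom and Benjamini-Hochberg adjustment over all probes of a contrast at 0.05. For the lines under shNSC each array was centred on its median first. Percent of control is 2 to the power of the log2 difference. The fit was tested on simulated data. Promoter windows came from a RefSeq table (GRCh38.p14) through the Entrez gene ID. Scripts ran in Python 3.11.15 with pandas 2.3.3 and matplotlib 3.10.9.

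The members, the role groups and the gene lists (sterol synthesis and uptake, SREBP regulators, fatty acid synthesis, small RNA machinery, interferon-stimulated genes and RNA sensors, ERK5 cascade, adrenergic, Schwann, fibroblast, endothelial, blood and immune markers) were chosen with earlier results of these data known. Named with values in every array were MAPK7 and the 20 named members with the lowest mean shERK5-4 difference. Also named were other members with their roles, the 4 probes on each side of each limit, the 6 and 4 called members in each direction that differed most between the lines in control level and in shERK5-4 effect, and up to 4 genes of a list. A few genes outside this rule are marked as picked out after their values were seen. Alternatives were median centring, quantile normalization, a replicate block, a filter on dim probes (mean below percentile 25), trended and robust eBayes, array weights, a fit to 1 line, a threshold of 0.01, other limits of the rule and leaving out each array.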

Additional observations from a re-analysis of the deposited data

Results flagged for a closer look

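In the limma fit over all probes, a difference between the lines in the shERK5-4 effect passed the threshold for 22 of the 106 members, beside 7.23% of all probes, and for 17 of 111 after quantile normalization, split 9 and 8. It is made of the values that chose the members, so it is a description and supports nothing. The 4 of these with the smaller drop in CHLA-90 that differed most had line differences (CHLA-90 minus SK-N-BE(2), log2) of 2.35 for GEM, 2.26 for POPDC2, 1.49 for MIX23 and 1.48 for RXYLT1. The 4 with the larger drop there that differed most had -3.29 for GPR50, -2.31 for LRRN3, -1.37 for JUP and -1.24 for PTPRR. All 8 kept their direction in the alternatives run. With each array left out in turn, GEM ranged from 2.10 to 2.62, GPR50 from -3.62 to -3.11 and JUP from -1.61 to -1.16.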

How the results depend on the processing

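The set is the product of its limits. With the shERK5-4 limit at -1.5 it held 57 probes. Of these, 43 were called between the lines under shNSC, beside 56.3% of all probes. For a line difference in the shERK5-4 effect 9 were called, beside 7.23%, which describes values that the rule used. Of the 168 probes then chosen in CHLA-90 alone, 141 were called lower in SK-N-BE(2), beside 11.7% of all probes. A limit of -1.0 gave 135 probes, a shERK5-5 window of 0.3 gave 73 and of 0.5 gave 146. Median centring gave 107 probes, 103 of them shared with the set, and quantile normalization 111, 96 of them shared. Without 1 array the set held 102 to 110, and 51 of the 106 members, 42 of them named, stayed whichever array was left out. At an adjusted p threshold of 0.01 the calls for a line difference in the shERK5-4 effect fell to 12. The share of all probes at that threshold was not taken.

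Over the arrays left out in turn, the members called between the lines under shNSC numbered 58 to 82, those called for a line difference in the shERK5-4 effect 15 to 27, the held-out counts 272 to 312 in CHLA-90 and 218 to 232 in SK-N-BE(2), and the sterol list counts 12 to 15 in SK-N-BE(2) and 13 to 15 in CHLA-90. Shares of all probes were not taken in these fits, so the ranges show only how far the counts moved. MAPK7 differences ranged from -0.86 to -0.59 with shERK5-4 and from -0.80 to -0.53 with shERK5-5 in SK-N-BE(2), where calls were lost as given above, and from -1.18 to -0.96 and from -1.19 to -0.88 in CHLA-90. The split of the members called between the lines under shNSC turned with the scaling, as given above, and no other direction turned in the alternatives run.

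Replicate numbers were not taken to pair the samples, since not every correlation passed: of 18 correlations of deviations between same-numbered arrays of a line, from -0.126 to 0.204, 7 passed 0.1, all 6 between arrays numbered 3 and 1 of the other 12, and 10 of the 18 arrays correlated best with their own number, which is a hint from the data and not from the design. With the replicate number as a block 74 members were called between the lines under shNSC and 22 for the shERK5-4 line difference (15 with the larger drop in SK-N-BE(2), 7 in CHLA-90), held-out counts were 301 and 229, the sterol list counts 14 and 15, and all MAPK7 calls stayed (adjusted p by limma from 0.000693 to 0.0382). The shares of all probes with this block were not taken, so its counts show only how far they moved.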
